A study of Mus musculus with 120 samples.

Results

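The 9 genes described are members of the liver X receptor (LXR) axis, followed through the livers of Collaborative Cross mice on 2 diets. They are the receptor genes Nr1h3 (LXR alpha) and Nr1h2 (LXR beta), the sterol transporter genes Abcg5, Abcg8, Abca1 and Abcg1, the apolipoprotein gene Apoe, Mylip and Lpcat3. The 9 were taken by symbol from the 24883 rows of the deposited table. Each symbol matched 1 row, all 9 passed the filter on low values, and none of the 9 was at 0 in any library.

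The study fed 10 Collaborative Cross strains, inbred lines that each mix the genomes of several founder strains, for 12 weeks. The strains are CC060, CC003, CC011, CC043, CC042, CC013, CC041, CC040, CC032 and CC019, and females and males of each received either diet. The high-fat and high-sucrose diet (HF/HS, TD.88137) drew 42% of its energy from milkfat and held 0.2% cholesterol and more than 30% sucrose. The control diet (TD.08485) was its low-fat counterpart with matched ingredients and less sucrose, so controls differed from treated mice in fat, sugar and cholesterol together. All livers came from inbred mice without a named transgene or drug, and the age of the mice was not given in the sources used here. Each of the 40 combinations of strain, sex and diet had 3 libraries. No label says that these were separate mice, so p-values may reflect a technical spread. In CC040 females, control 3 and HF/HS 1 were identical in every row, and both were left out, which left 118 libraries, 59 on each diet. Whole liver was sequenced, so a change in the cell types present and a change of RNA within a cell cannot be told apart.

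LXR alpha and LXR beta are nuclear receptors that pair with the retinoid X receptor and are activated by oxysterols, oxidised derivatives of cholesterol. When cholesterol accumulates, their targets move it out of cells. In hepatocytes the transporter subunits ABCG5 and ABCG8 join into 1 pump that sends sterols into bile, ABCA1 loads cholesterol onto apolipoprotein A-I, and ABCG1 exports it to HDL, chiefly from macrophages. Apolipoprotein E carries lipid and binds lipoprotein receptors, Mylip encodes the ubiquitin ligase IDOL, and LPCAT3 puts polyunsaturated fatty acids into phospholipids.

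The 2 sterol pump genes lie head to head on mouse chromosome 17, Abcg5 on the minus and Abcg8 on the plus strand. By RefSeq (GRCm38.p6) the first transcribed base of Abcg5 is 84683011. Abcg8 has 2 RefSeq promoters, and the start farther along the plus strand, 84683121, was used. Between these bases lie 109 bases. This stretch is shown because both genes moved together in the results, and capitals mark its GATAA matches, the letters bound by GATA factors, read on either strand.

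Abcg5-Abcg8 stretch, chr17:84683012-84683120, plus strand: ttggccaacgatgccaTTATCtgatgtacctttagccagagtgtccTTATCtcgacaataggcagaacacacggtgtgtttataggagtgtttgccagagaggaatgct

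The stretch held 2 GATAA matches, both on the minus strand, and 0.788% of 32851 RefSeq promoters had at least as many in the 109 bases before their start. Neither strand of it contains AGGTCA, the half-site of the LXR element. The share of other promoters that lack it was not computed, so this absence only describes the letters. The full element, DR4, is AGGTCA repeated in the same direction after 4 free bases. Promoter windows of 300 bases (250 before to 50 after the start) were found for 8 of the 9 genes, Abcg1 having no entry. With up to 3 mismatches in the 12 fixed letters, on both strands, 1 of the 12 windows of these genes had a match, against 21.9% of all windows. It was that of Abca1, at 67 to 52 bases before its start, and capitals mark the letters shared with DR4.

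Abca1 DR4-like match, chr4:53159947-53159962, plus strand: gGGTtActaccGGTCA

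These letters are those of the C57BL/6J reference and not of the strains studied. A match describes the letters and shows no binding. In the deposited table (mm10) Abcg5 spans 84658234 to 84682923 and Abcg8 84676302 to 84700333 on chromosome 17, so their loci overlap by 6622 bases. This Abcg8 locus has 2 starts and begins inside Abcg5, so the stretch shown above lies within it. In the GENCODE M21 annotation Abcg5 and Abcg8 share 82 exonic bases, 3.02% of those of Abcg5 and 2.19% of those of Abcg8. Lpcat3 shares 334 of 3268 exonic bases with Emg1 on the other strand, and Nr1h3 shares 34 of 2515 with Gm13783. Whether the values were counted by strand is not given, so reads from these shared bases cannot be assigned. Of the other genes, Nr1h2 (44549616 to 44553965) and Apoe (19696244 to 19699188) lie on chromosome 7, Nr1h3 (91184061 to 91195116) on 2, Abca1 (53030789 to 53159895) on 4, Mylip (45389742 to 45411940) on 13, Lpcat3 (124663104 to 124704716) on 6 and Abcg1 (31057694 to 31117981) on 17.

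Values are FPKM-like, that is scaled for transcript length, and their read depth is unknown. CC003 libraries summed to between 3192040 and 4629870 units, against 943592 to 1365520 in the 8 strains other than CC003 and CC060. CC060 libraries had a median of 1.37 for Rpph1, an RNA without a poly(A) tail, against 28067 in those 8 strains. Differences in level between CC003 or CC060 and other strains therefore cannot be told apart from library preparation, while diets were compared within each strain. The lowest correlations with the own group were those of CC011 female HF/HS 1 (at most 0.900), CC060 female control 1 (0.935) and CC060 male control 3 (0.938). The first and last of these also held the extreme values of several of the 9 genes; they are called here the 2 libraries that stood apart, and results that rest on them are given with and without both. CC060 female control 1 was left out only together with female control 1 of the other strains, and calls lost in that setting are named for CC060 females.

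The main comparison asked which of the 9 genes differ between the HF/HS and the control diet. On the HF/HS diet, 6 of 9 rose and none fell: the biliary exporters Abcg5 and Abcg8, the HDL-directed exporters Abca1 and Abcg1, Apoe and Mylip. Of all 12205 genes tested, 17.2% rose and 15.4% fell. "Rose" and "fell" refer to an adjusted p under 0.05 (limma on log2(value + 1), Benjamini-Hochberg over all genes tested). The median difference of the 9 genes was 0.20 on that scale, and that of all genes tested was 0.000588. The biliary pair changed most, and neither receptor gene passed the test.

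Abcg5 ranged from 15.1 to 153 with a median of 63.4 in the 59 control libraries, and from 24.9 to 203 with a median of 103 in the 59 HF/HS libraries. The ranges overlapped over most of their width because strains differ, yet within strain and sex the 3 HF/HS libraries all exceeded the 3 control libraries in 14 of 20 groups. Over all genes and groups tested, 11.1% showed such a separation upwards and 10.6% downwards. Abcg5 rose by 0.72 ± 0.0673 (log2, SE; adjusted p = 1.12e-14), and its HF/HS mean was higher in 18 of 20 groups.

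Abcg8, the partner subunit, had control values of 14.8 to 99.1 (median 45.4) and HF/HS values of 12.9 to 168 (median 71.9). It rose by 0.54 ± 0.0697 (adjusted p = 1.19e-09), with a higher mean in 16 of 20 groups and no overlap of the diets in 12. The lowest HF/HS value of each subunit belongs to CC011 female HF/HS 1. Counts for either gene include no group in which all HF/HS libraries lay below all controls.

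**Figure D1:**
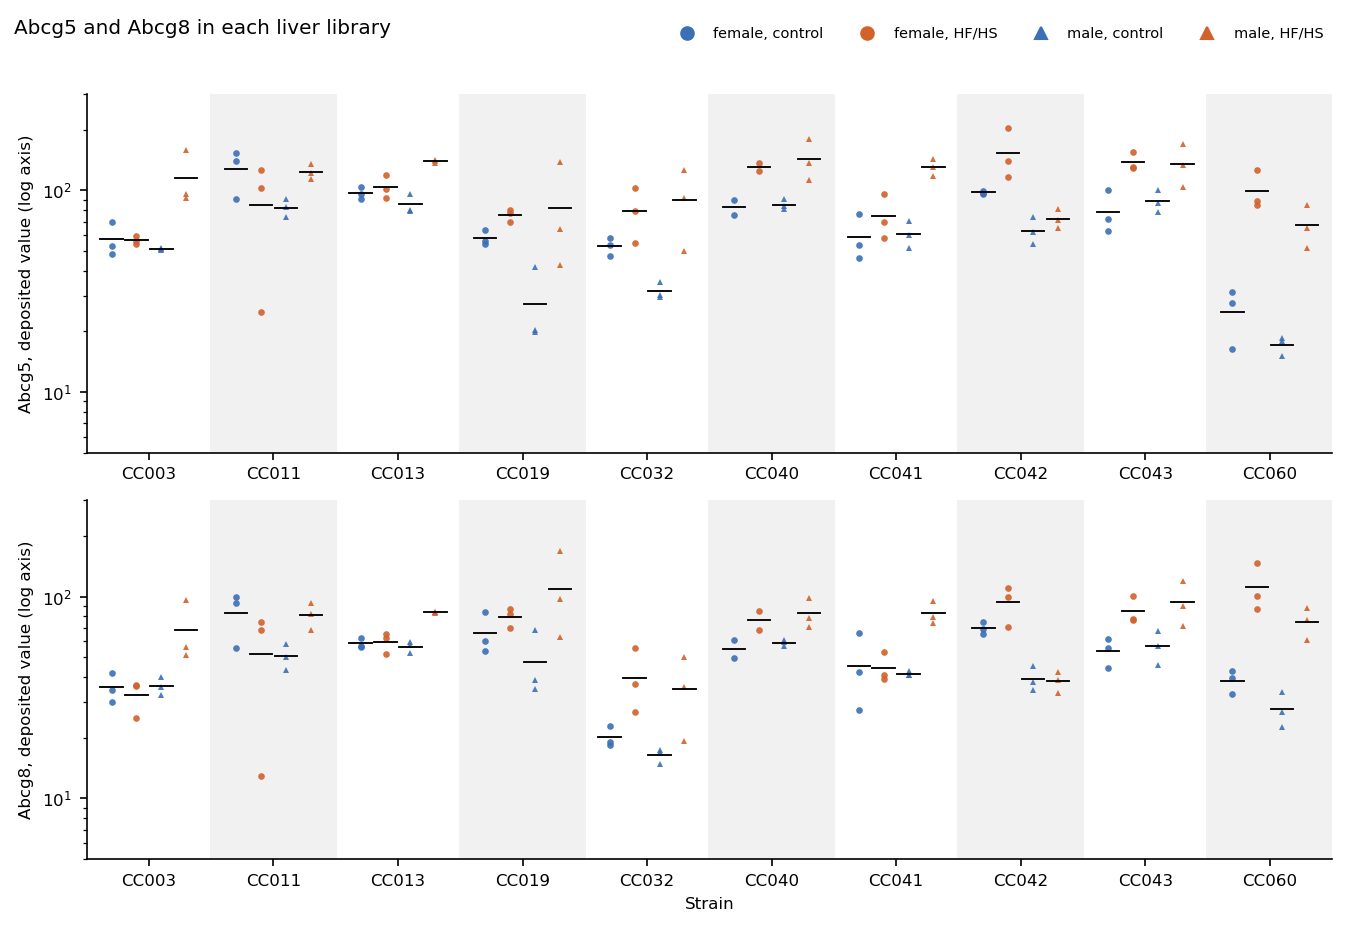
Deposited values of Abcg5 (top) and Abcg8 (bottom) on a log axis in each of 118 libraries, by strain on the horizontal axis; circles are females, triangles males, blue control and orange HF/HS, and black bars are group means. The HF/HS libraries lie above the controls without overlap in 14 of 20 groups for Abcg5 and in 12 for Abcg8, and the gap is widest in CC060.

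Abcg1 was expressed at a low level, at 2.31 to 10.5 (median 3.71) on the control and 1.60 to 15.4 (median 5.43) on the HF/HS diet. It rose by 0.33 ± 0.0432 (adjusted p = 1.71e-09), with a higher mean in 17 of 20 groups. The diets did not overlap in 11 groups, of which 10 had higher HF/HS values and CC013 males had lower ones.

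Abca1 moved less. Its control values were 9.33 to 99.2 (median 73.6) and its HF/HS values 40.1 to 210 (median 81.3), and the extremes of both ranges came from the 2 libraries that stood apart: CC060 male control 3 at 9.33 and CC011 female HF/HS 1 at 210. The rise was 0.20 ± 0.0513 (adjusted p = 0.00161). When each strain counted as 1 replicate it was not called (adjusted p = 0.0571).

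Apoe was the most abundant of the 9, with 12764 to 62557 (median 21462) on the control and 7942 to 37857 (median 26989) on the HF/HS diet. The highest control value, in CC060 male control 3, exceeded every HF/HS value, and the lowest HF/HS value, in CC011 female HF/HS 1, was below every control value. Within strain and sex, 15 of 20 groups had HF/HS libraries above all controls and none had them below. It rose by 0.28 ± 0.0456 (adjusted p = 5e-07).

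Mylip rose by 0.17 ± 0.0387 (adjusted p = 0.000243), from a median of 7.96 (4.50 to 15.6) to 9.07 (5.94 to 13.4). Lpcat3 went from a median of 60.4 (32.7 to 99.8) to 68.2 (25.1 to 101), a difference of 0.10 ± 0.0430 that did not pass the test (adjusted p = 0.0547). Without CC011 female HF/HS 1 and CC060 male control 3 the same difference was 0.13 and passed (adjusted p = 0.00491). That setting was added after seeing the data, and the first of these libraries held the lowest HF/HS value of Lpcat3. The difference passed in 7 of 36 alternatives. For these 2 genes the diets separated in few groups, in 5 of 20 upwards for Mylip and in 4 upwards and 1 downwards for Lpcat3.

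Neither receptor gene passed the test for diet. Nr1h3 had a median of 93.3 on the control and 93.2 on the HF/HS diet, with a difference of 0.00139 ± 0.0263 (adjusted p = 0.977). Nr1h2 had medians of 21.3 and 21.3 and a difference of -0.0073 ± 0.0203 (adjusted p = 0.816). The Nr1h3 to Nr1h2 ratio differed by 0.0087 on the log2 scale (SE over the 20 strain-sex groups 0.0391; two-sided permutation p = 0.761, permuting diets within groups), with a positive sign in 10 of 20 groups. Nr1h3 was the more abundant receptor, at 55.1 to 186 over all libraries against 16.8 to 42.2 for Nr1h2.

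**Figure D2:**
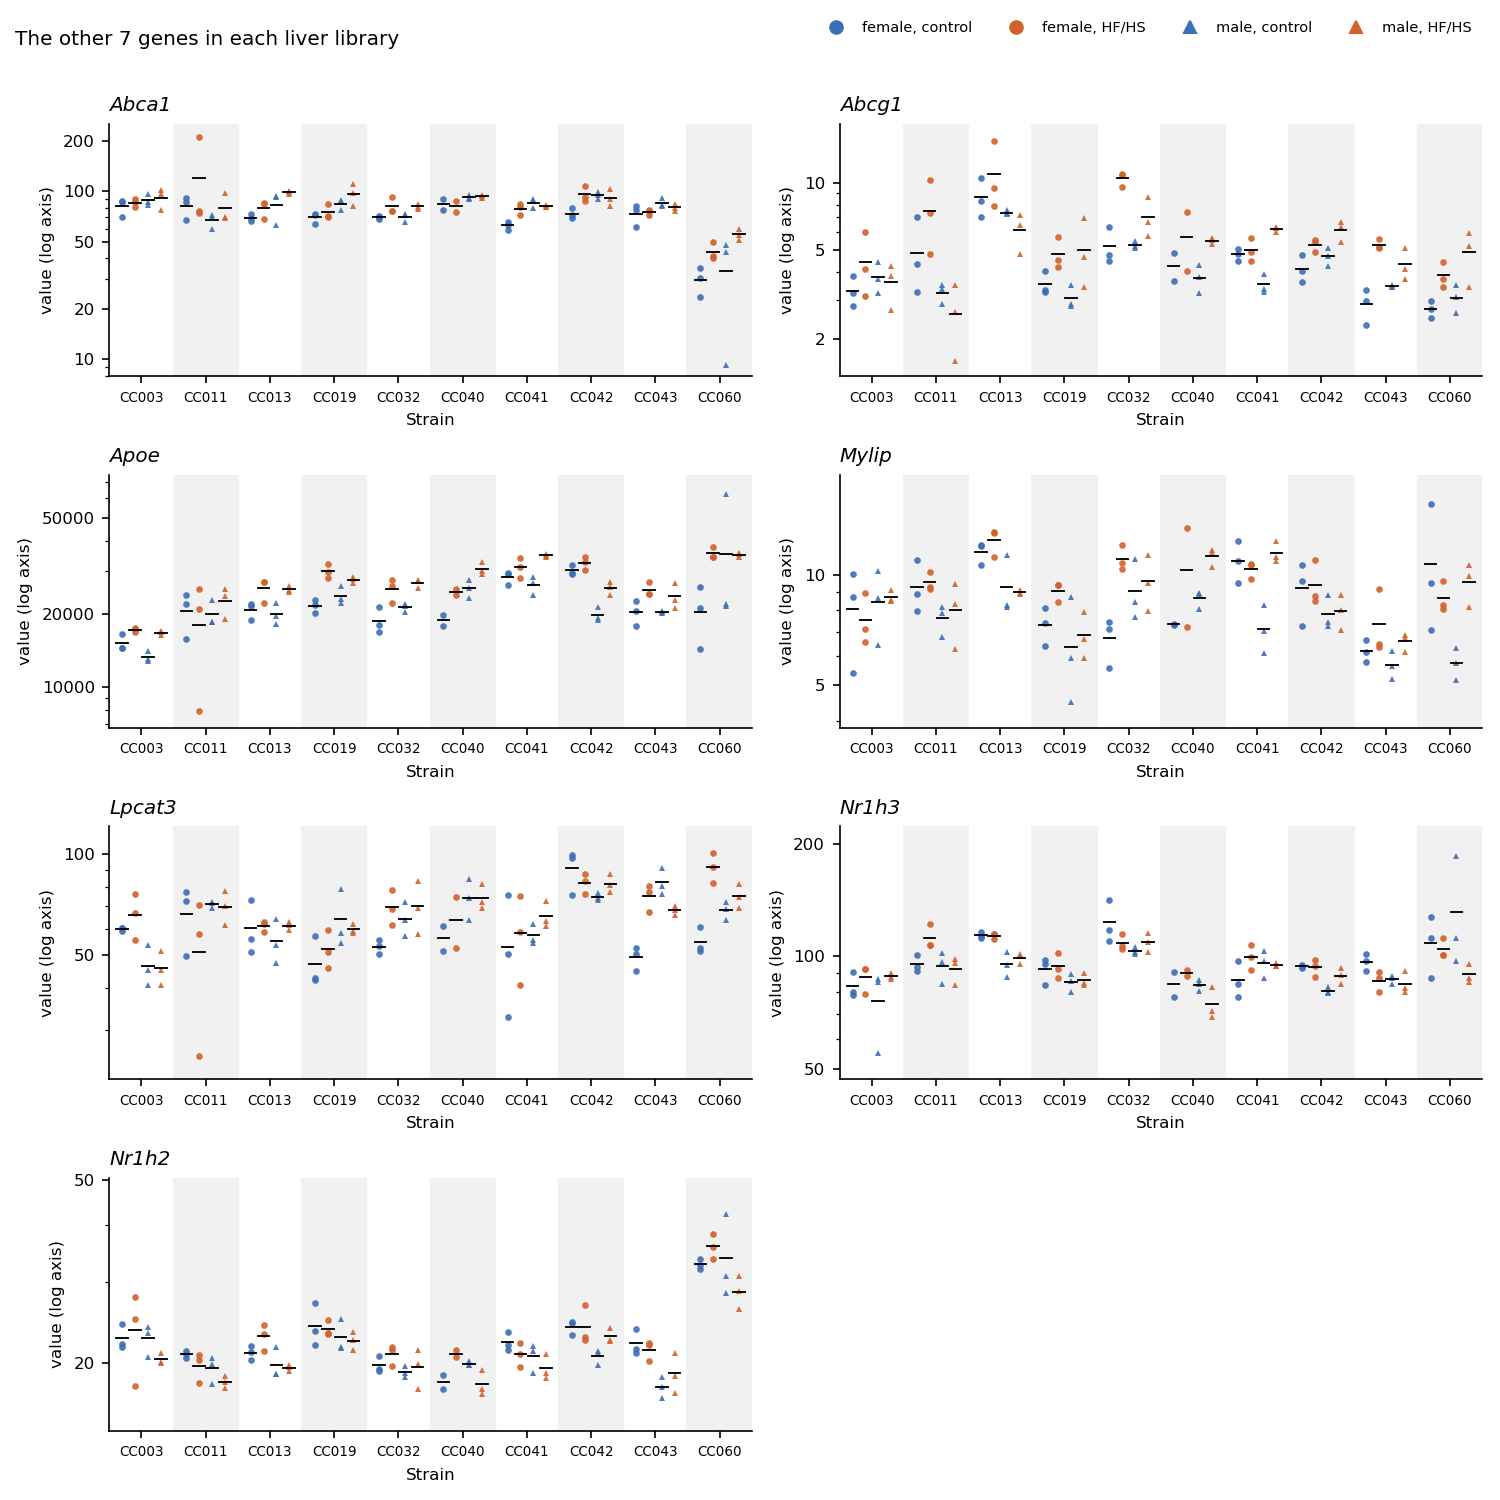
Deposited values of Abca1, Abcg1, Apoe, Mylip, Lpcat3, Nr1h3 and Nr1h2 on log axes in each of 118 libraries by strain, with symbols and bars as for Abcg5 and Abcg8. Abca1 is lowest and Nr1h2 highest in CC060, and the isolated points are CC060 male control 3 (Abca1 9.33, Apoe 62557, Nr1h3 186) and CC011 female HF/HS 1 (Abca1 210, Apoe 7942, Lpcat3 25.1).

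The sexes were then compared, first by the diet difference within each. In females 6 of 9 genes rose (9.59% of all genes rose), and in males 5 of 9 (11% rose), with none falling in either sex (8.08% and 9.93% of all genes fell). Abcg5, Abcg8, Abcg1 and Apoe rose in each sex. Abca1 and Lpcat3 passed the test in females and Mylip in males, but no difference between the sexes was called for any of these 3 genes. Their calls were kept in 29, 21 and 35 of 36 alternatives, in the order named. With each strain counted as 1 replicate, 2 of the female calls (Abca1 and Abcg1) and 3 of the male calls (Abcg5, Abcg8 and Apoe) were kept.

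The 29 female libraries of each diet had a median Abcg5 of 70.0 (16.3 to 153) on the control and 95.8 (24.9 to 203) on the HF/HS diet, a rise of 0.46 ± 0.0963 (adjusted p = 0.000316). The 30 male libraries of each diet went from a median of 61.1 (15.1 to 99.98) to 116 (42.7 to 180), a rise of 0.97 ± 0.0940 (adjusted p = 5.44e-14). The male median was below the female one on the control diet and above it on the HF/HS diet, and the ranges of the sexes overlapped on both.

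The male minus female difference of these diet effects was 0.52 ± 0.135 for Abcg5 (adjusted p = 0.0354), where 0.877% of all genes were called in either direction. Abcg8 showed 0.45 ± 0.139, which did not pass (adjusted p = 0.104), after rises of 0.32 ± 0.0998 in females (adjusted p = 0.0182) and 0.77 ± 0.0974 in males (adjusted p = 1.5e-09). The female Abcg8 rise was not called without CC032, CC043 or CC060 (adjusted p = 0.0954, 0.0773 and 0.220). Of the 9 genes, 1 was called for this difference, Abcg5. The call was lost when each strain counted as 1 replicate (adjusted p = 0.813), without CC003 and CC060 (0.143), and without any 1 of CC003, CC011, CC013, CC019, CC032 or CC041 (0.0812 to 0.173), and in 8 of 12 settings that leave out 1 replicate of each strain, while the difference itself stayed between 0.41 and 0.62 under every alternative.

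**Figure D3:**
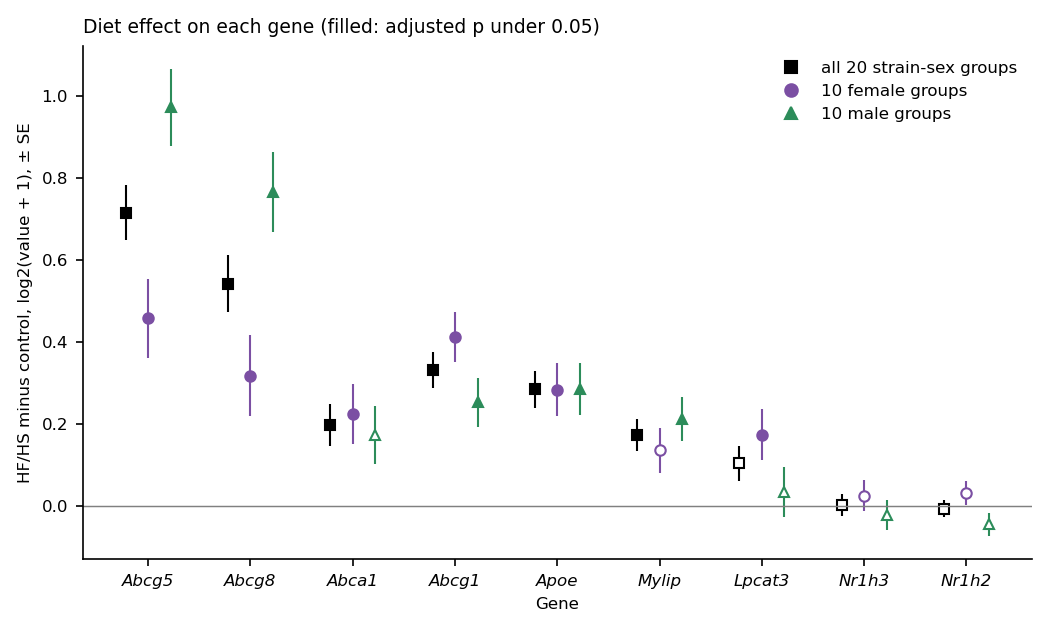
HF/HS minus control difference on the log2(value + 1) scale, with its SE, for each of the 9 genes over all 20 strain-sex groups (squares), the 10 female groups (circles) and the 10 male groups (triangles); filled symbols have an adjusted p under 0.05. Abcg5 shows 0.46 in females and 0.97 in males, while Nr1h3 and Nr1h2 lie near 0.

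On the control diet 5 of 9 genes differed between the sexes, where 43.5% of all genes did. Abcg5 was lower in males by 0.36 ± 0.0952 (adjusted p = 0.00133), and its call held in all 36 alternatives run. Abcg8 was lower in males by a log2 difference of -0.26 ± 0.0986 (adjusted p = 0.0252), Mylip by -0.17 ± 0.0547 (adjusted p = 0.00875) and Nr1h2 by -0.08 ± 0.0287 (adjusted p = 0.0234). Lpcat3 was higher in males by 0.17 ± 0.0608 (adjusted p = 0.0203). With each strain as 1 replicate, 1 of these 5 calls, that of Abcg5, was kept. The others were each lost without some single strain: Nr1h2 without CC042 or CC043, Abcg8 without CC019, CC042 or CC060, Mylip without CC041 or CC060, and Lpcat3 without CC019, CC040, CC043 or CC060.

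On the HF/HS diet 3 of 9 genes differed by sex, where 45.4% of all genes did, and all 3 were lower in males. Nr1h2 differed by -0.15 ± 0.0287 (adjusted p = 6.82e-06), Nr1h3 by -0.12 ± 0.0372 (adjusted p = 0.00393) and Abcg1 by -0.22 ± 0.0611 (adjusted p = 0.00203). Of the 15 macrophage markers 12 were lower and 1 higher in males on this diet (median -0.59), where 20.3% of all genes were lower and 25.1% higher. On the control diet 11 were lower and none higher (median -0.34), where 18.8% of all genes were lower and 24.8% higher. Macrophages express Abcg1, and their part in its lower level in males was not tested. The Abcg1 value was -0.11 without CC011 and was then not called (adjusted p = 0.126), nor was it when each strain counted as 1 replicate (adjusted p = 0.257). Abcg5 and Abcg8 were not called on the HF/HS diet, with differences of 0.16 and 0.19 (adjusted p = 0.178 and 0.114).

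Strains were compared next for the size of the diet effect. Abcg5 and Abcg8 differed between strains in their diet effect by an F test over the 10 strains (adjusted p = 0.000207 and 0.0124), where 5.54% of all genes did. The other 7 genes did not pass. Without CC060 neither was called (adjusted p = 0.147 and 0.242), so the calls rest on that strain, and Abcg8 was also not called without male control 2 of each strain (adjusted p = 0.0789). Apoe was called without the 2 libraries that stood apart (adjusted p = 0.0279), a setting added after seeing the data, and in 3 of 35 alternatives in all.

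CC060 had many calls among all genes, with 1.4% rising and 1.04% falling in females and 9.64% rising and 12.4% falling in males. It also had the lowest Abcg5 on the control diet and the largest rise of any strain. Its female libraries had Abcg5 values of 16.3, 31.3 and 27.6 on the control and 88.4, 126 and 84.6 on the HF/HS diet. Its male libraries had 15.1, 18.5 and 17.9, and then 84.3, 52.0 and 64.9. No HF/HS library came near a control library, and the ratio of means was 3.97 in females and 3.91 in males. The rises were 1.97 ± 0.297 (adjusted p = 9.95e-06) and 1.88 ± 0.297 (adjusted p = 5.23e-06), and both were called in all 33 alternatives that give a value for CC060.

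Abcg8 in CC060 went from 32.8, 39.6 and 42.6 to 101, 148 and 86.7 in females and from 26.8, 22.6 and 33.5 to 87.5, 61.3 and 76.2 in males. These are rises of 1.49 (adjusted p = 0.00293) and 1.41 (adjusted p = 0.000638), again with no overlap, and the female call was lost without HF/HS 2 of each strain (adjusted p = 0.0544). Apoe rose in CC060 females, from 14325, 25878 and 21031 to 34351, 37857 and 34318 (0.84; adjusted p = 0.0107), and so did Lpcat3 (0.73; adjusted p = 0.0194). The Apoe call was lost under quantile normalization and without female control 1 or female HF/HS 2 of each strain, and the Lpcat3 call without female control 1, HF/HS 2 or HF/HS 3.

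In CC060 males 4 calls were lost without male control 3 of each strain. They are a fall of Nr1h3 (-0.50; adjusted p = 0.00133) and rises of Abca1 (1.001; adjusted p = 0.000958), Mylip (0.65; adjusted p = 0.00429) and Abcg1 (0.52; adjusted p = 0.0414). That library had an Nr1h3 value of 186 against 96.9 and 112 in the others of its group, and an Abca1 value of 9.33 against 43.5 and 47.7. For Mylip and Abcg1 its values, 5.18 and 2.61, lay close to the others (6.30 and 5.74, and 3.08 and 3.48). Without it the differences were -0.22 for Nr1h3 and 0.28 for Abca1, but still 0.59 for Mylip and 0.43 for Abcg1 (adjusted p = 0.387, 0.592, 0.0632 and 0.414).

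Over the 9 genes and 20 strain-sex groups, 18 rises and 1 fall were called among 180 tests, where 1.52% of all such tests were called as rises and 1.49% as falls. Over both sexes of a strain, 15 of 90 effects were called, and the 1 fall among them was Nr1h3 in CC060 (2.36% of all such tests were rises and 2.2% falls). That fall (-0.27, limma adjusted p = 0.0186) was lost in 8 of 33 alternatives. Among them were quantile normalization, leaving out male control 3 of each strain, and leaving out the 2 libraries that stood apart. In the strain-sex groups Abcg5 supplied 6 of the rises, in CC003, CC019, CC032, CC041 and CC060 males and in CC060 females. In CC019 males it went from 20.2, 19.9 and 41.8 to 138, 42.7 and 64.7, so the lowest HF/HS library barely exceeded the highest control. In CC032 males it went from 35.3, 30.2 and 29.6 to 50.3, 91.5 and 127. The CC003 male call was lost with library weights and without control 1 or HF/HS 3 of each strain, that in CC019 males without control 1, control 2 or HF/HS 1, and that in CC032 males without HF/HS 3.

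**Figure D4:**
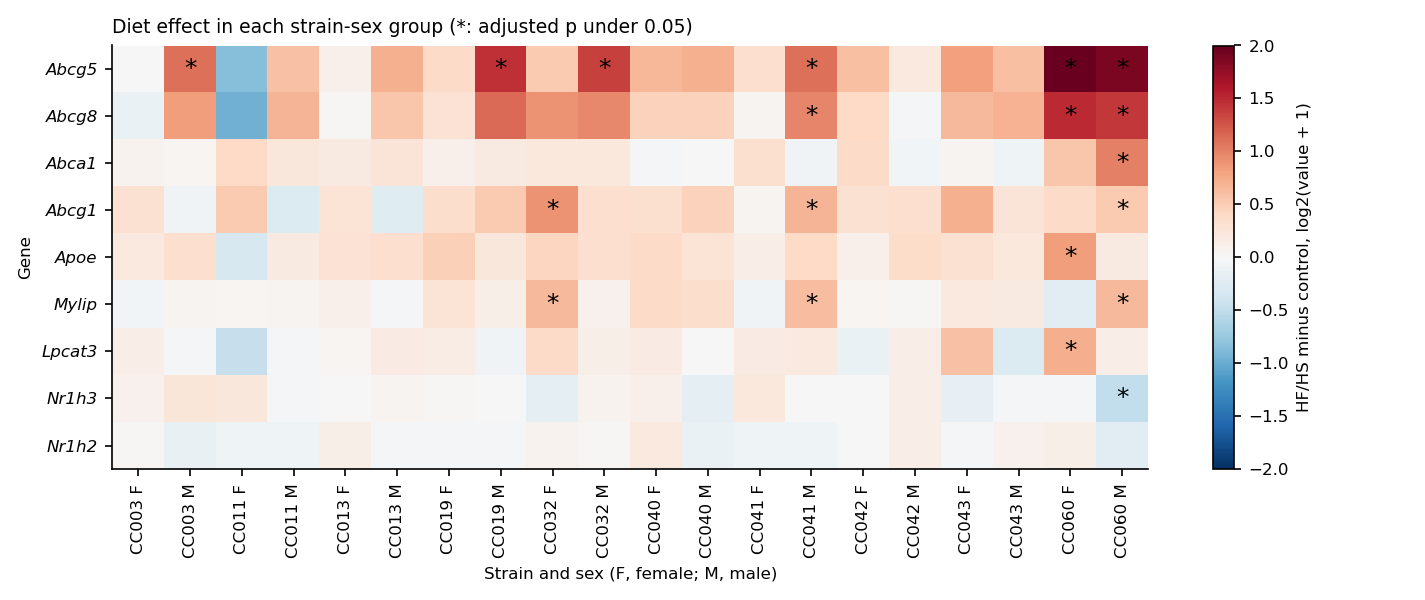
HF/HS minus control difference on the log2(value + 1) scale for each gene (rows) in each of the 20 strain-sex groups (columns); red is higher and blue lower on the HF/HS diet, and stars mark an adjusted p under 0.05. Stars lie in 6 of 20 groups for Abcg5, and the strongest colours are in CC060.

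The diets overlapped for Abcg5 in 6 of 20 groups, which were the females of CC003, CC011, CC013, CC032 and CC041 and the males of CC042. In CC003 females Abcg5 was 48.6, 53.1 and 70.0 on the control and 56.2, 54.4 and 59.4 on the HF/HS diet, while CC003 males went from 51.2, 52.0 and 50.8 to 95.99, 91.3 and 158. In CC011 females the HF/HS libraries had Abcg5 values of 24.9, 102 and 126 against controls of 153, 90.2 and 139. The lowest of these is the library that stood apart. CC042 males had control values of 73.6, 62.2 and 54.0 and HF/HS values of 80.6, 65.0 and 71.7.

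Abcg1 stood out in CC032 females, rising from 6.37, 4.45 and 4.78 to 11.003, 10.8 and 9.62 (0.90 ± 0.191; adjusted p = 0.00115), a call kept in all 34 alternatives that give a value for CC032. Mylip rose in the same females, from 5.58, 7.45 and 7.10 to 10.8, 12.0 and 10.4 (0.65; adjusted p = 0.0124), a call lost without female control 1, HF/HS 1 or HF/HS 2 of each strain. In CC041 males Abcg5, Abcg8, Abcg1 and Mylip were all called as higher. Their adjusted p lay between 0.0210 and 0.0491, and each was lost in at least 4 settings that leave out a replicate.

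For 2 of 90 gene and strain pairs the diets did not overlap in either sex and moved in opposite directions, against 1.4% over all genes. Lpcat3 in CC043 females went up from 52.8, 44.9 and 50.5 to 80.6, 67.3 and 77.0, and in CC043 males it went down from 91.3, 80.7 and 76.4 to 70.3, 68.2 and 65.8. Nr1h2 in CC040 females, with 2 libraries a diet, went from 18.9 and 17.6 to 21.4 and 20.6, and in males from 19.8, 20.2 and 19.8 to 17.1, 19.3 and 17.6. Neither opposition was tested within its strain.

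Strain differences on the control diet were tested in the 8 strains other than CC003 and CC060. Levels of CC003 and CC060 cannot be told apart from library preparation, which also limits their places in the orders below. Of the 9 genes 8 differed, which is close to the 86.5% of all genes that did, and Abca1 did not pass (adjusted p = 0.613). Abca1 was called without the 2 libraries that stood apart (adjusted p = 0.0119), a setting added after seeing the data, and in 3 of 36 alternatives in all. Neither library is a control of these 8 strains. Leaving them out therefore kept the compared means and changed only the spread estimated over all groups. Abcg1 had the lowest adjusted p (9.03e-11), followed by Abcg8 (1.13e-10) and Abcg5 (7.79e-10). In all 10 strains, 9 of 9 genes and 96.6% of all genes were called.

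By control median, Abcg5 ran from 18.2 in CC060 and 41.4 in CC032 through CC019, CC003, CC041, CC043, CC040, CC042 and CC011 to 93.6 in CC013. Each strain overlapped its neighbour in this order. Abcg8 was lowest in CC032, at 14.8 to 22.8 (median 17.8), while the 7 other strains outside CC003 and CC060 had medians of 41.7 in CC041 to 59.4 in CC040. Without CC032 the strain difference of Abcg8 was not called (adjusted p = 0.240).

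Abcg1 was highest in CC013, at 7.06 to 10.5 (median 7.41), above every control library of the other strains, of which the highest was 7.01 in CC011. Its lowest medians were 2.83 in CC060 and 3.28 in CC019. Abca1 was lowest in CC060, at 9.33 to 47.7 (median 32.7), and in the other 9 strains its medians lay between 70.7 and 90.5 with every neighbour overlapping. Nr1h2 had its highest values in CC060, at 28.5 to 42.2, above the 27.1 of the next strain, CC019. The extremes 9.33 and 42.2 are both from CC060 male control 3, and library preparation limits both comparisons of CC060.

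Apoe had its lowest control median in CC003 (14210) and its highest in CC041 (27622). Without CC041 the difference between the remaining strains was not called (adjusted p = 0.365). Mylip ran from 5.96 in CC043 to 10.99 in CC013, Lpcat3 from 54.9 in CC013 to 76.3 in CC042, and Nr1h3 from 82.7 in CC003 to 112 in CC060. For these 4 genes all neighbours in the order overlapped. Lpcat3 was not called without CC042 (adjusted p = 0.144).

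On the HF/HS diet the strains lay closer for Abcg5, whose medians spanned 73.5 in CC019 to 136 in CC040, a ratio of 1.85 against 5.14 on the control diet. In the 8 strains other than CC003 and CC060 these ratios were 1.85 and 2.26. For Abcg8 the ratios of highest to lowest strain median were 2.41 on the HF/HS and 3.33 on the control diet, and 2.34 and 3.33 in those 8 strains. CC060 moved from second lowest Abcg8 on the control diet to the highest median, 87.1, on the HF/HS diet. This change in spread was not tested.

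The ratio of Abcg5 to Abcg8 values, 2 subunits of the same pump, had different ranges in some strains, which was not tested. As with levels, a difference of CC003 or CC060 from other strains in this ratio cannot be told apart from library preparation. CC060 had ratios of 0.497 to 0.975, below 1 in 12 of 12 libraries, and CC019 had 0.514 to 1.15, below 1 in 10 of 12. CC032 had 1.75 to 2.81, which overlapped the ranges of other strains such as CC003 (1.28 to 2.16). In the 7 other strains every library was above 1, with medians of 1.4996 to 1.66, and their ranges overlapped one another. Since both values are scaled for transcript length, the ratio compares levels, but it also depends on the transcript models used, and the part of sequence differences between founder genomes in mapping was not tested.

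The ratio itself shifted with diet. Abcg5 rose more than Abcg8, by 0.17 on the log2 scale (SE over the 20 strain-sex groups 0.0448; two-sided permutation p = 1e-05, the smallest that 100000 resamples can give, and 2e-05 adjusted over the 2 ratios tested), with the sign in 17 of 20 groups. Without CC003 and CC060 it was 0.13 (adjusted p = 0.00036). In CC060 the ratio went from a median of 0.606 to 0.865 with no overlap between the diets. In CC032 the sexes moved in opposite directions without overlap, from 2.58, 2.81 and 2.55 to 1.86, 2.17 and 2.05 in females and from 2.09, 1.75 and 2.003 to 2.61, 2.57 and 2.53 in males.

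**Figure D5:**
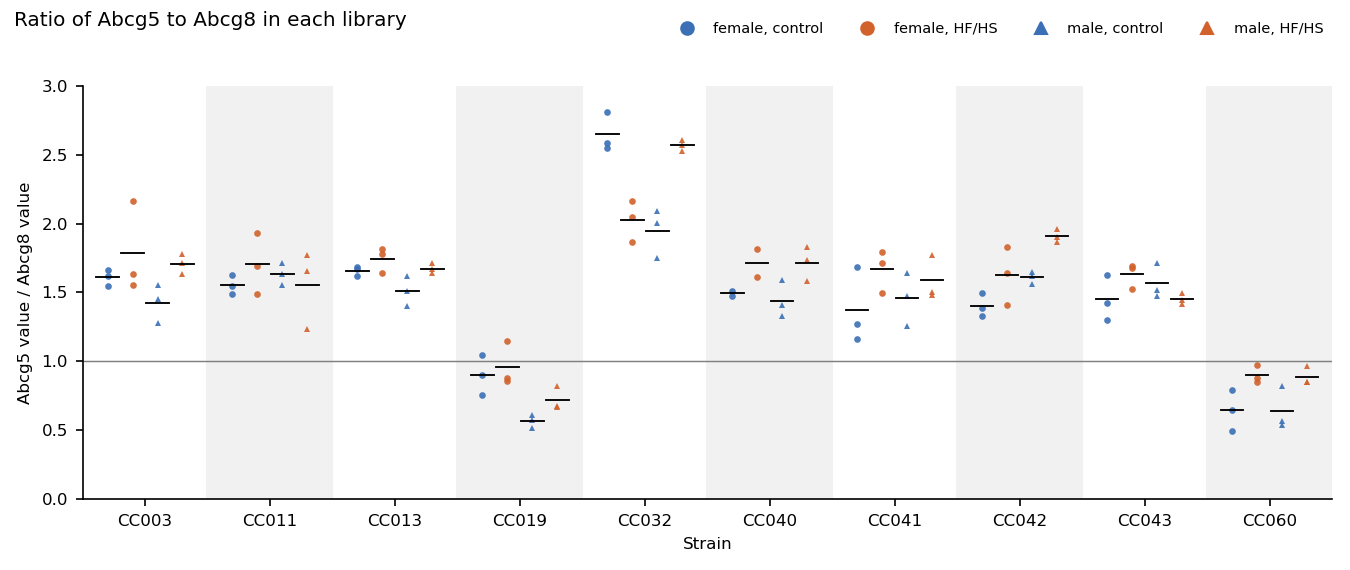
Ratio of the Abcg5 to the Abcg8 value in each of 118 libraries by strain, on a linear axis that starts at 0, with symbols and bars as for the single genes; the grey line marks a ratio of 1. All 12 libraries of CC060 and 10 of 12 of CC019 lie below 1, and CC032 reaches highest, at 1.75 to 2.81, overlapping other strains.

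The 9 genes were also compared library by library after each group mean was removed, so that strain, sex and diet do not enter. Of 36 pairs, 5 were called by both Pearson and Spearman correlation (two-sided permutation within groups, 100000 resamples, adjusted over 36 pairs). Abcg5 and Abcg8 varied together most closely (r = 0.919, adjusted p = 0.00018; rho = 0.847, adjusted p = 0.00012; n = 118). Leaving out the 2 libraries farthest from the median of Abcg5 gave r = 0.893, and leaving out CC003 and CC060 gave 0.940.

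Apoe followed the same pair, with r = 0.585 (adjusted p = 0.00018) and rho = 0.560 (adjusted p = 0.00012) for Abcg5 and r = 0.581 (adjusted p = 0.00024) and rho = 0.507 (adjusted p = 0.00012) for Abcg8. Without the 2 farthest libraries these r were 0.499 and 0.403, and without CC003 and CC060 0.702 and 0.687. Under quantile normalization neither was called by r (adjusted p = 0.168 and 0.0832).

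Nr1h2 varied with Apoe (r = 0.479, adjusted p = 0.00027; rho = 0.446, adjusted p = 0.00027), with r = 0.284 (adjusted p = 0.00317) without the 2 libraries that stood apart and 0.191 under quantile normalization. It varied against Abca1 (r = -0.486, adjusted p = 0.00634; rho = -0.350, adjusted p = 0.0127). Without the 2 farthest libraries these r were 0.411 and -0.392, and without CC003 and CC060 0.403 and -0.306. The second was then not called (adjusted p = 0.0549), nor was it without the 2 libraries that stood apart (r = -0.239, adjusted p = 0.0802), and neither was called by r under quantile normalization (adjusted p = 0.168 and 0.109). Abca1 and Apoe reached r = -0.746 without being called by r (adjusted p = 0.0658), were called without CC003 and CC060 (r = -0.743, adjusted p = 0.0085), and had an r of -0.185 without CC011 female HF/HS 1 and CC060 male control 3. Abca1 and Mylip were called by rho (-0.322, permutation adjusted p = 0.0252) and not by r (-0.178, adjusted p = 0.0914). Their r was called under quantile normalization (-0.213, adjusted p = 0.0396) and without CC003 and CC060 (-0.289, adjusted p = 0.0138). It was also called without the 2 libraries that stood apart (-0.443, adjusted p = 0.00315).

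Among 11405 other genes, those most like each of the 9 were ranked by Pearson r over the 118 libraries with strain means removed, so that sex and diet remain in the values. The ranking is a description. For Abcg5 they were Abcg8 (r = 0.944), the ferrireductase gene Steap3 (0.716) and Cyp4f15 (0.685), and for Abcg8 they were Abcg5, Cyp4f15 (0.704) and Ppm1k (0.688). Apoe was followed by Gpx1 (0.882), its chromosomal neighbour Apoc1 (0.879) and Itm2b (0.856). Steap3 rose with diet by 0.41 and Gpx1 by 0.28 (adjusted p = 3.2e-13 and 3.71e-06).

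Abcg1 was followed by Myof (0.842), Sirpa (0.841), which encodes a myeloid surface receptor, and Cyth4 (0.836). For Abca1 the nearest were the junction genes Ctnnd1 (0.702), Mllt4 (0.681) and Fat1 (0.670). The nearest to Nr1h3 was Snrpg (0.669), to Nr1h2 Gltscr2 (0.615), to Mylip Fmnl2 (0.618) and to Lpcat3 Ube2h (0.695).

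Other genes of the pathway were read from lists. Of 17 further LXR targets, 5 rose and 3 fell on the HF/HS diet, with a median difference of 0.08. Lpl (lipoprotein lipase) rose by 0.71 ± 0.0902, Apoc2 (its activator) by 0.43 ± 0.0506, and Srebf1 (the lipogenic regulator SREBP-1) by 0.42 ± 0.127 (adjusted p = 6.96e-10, 7.07e-11 and 0.00711). Apoc1 and Smpdl3a were the other 2 that rose. Fasn (fatty acid synthase) fell by 0.77 ± 0.170, Pltp (phospholipid transfer protein) by 0.37 ± 0.0694 and Npc2 (a lysosomal sterol carrier) by 0.25 ± 0.0288 (adjusted p = 0.000209, 1.27e-05 and 3.17e-11). Lpl, Apoc2, Pltp and Npc2 were called in each sex. Srebf1 was called in females (0.59) and not in males (0.25), and Fasn in males (-1.22) and not in females (-0.32). A test between the sexes is not given for Srebf1 and Fasn. Of all genes tested 17.2% rose and 15.4% fell, and the share of this list that fell is near the latter.

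Of 11 tested receptor partners and coregulators, Ncoa1 rose by 0.06 ± 0.0245, and Ncoa3 and Ttc39b fell by 0.08 ± 0.0253 and 0.15 ± 0.0391 (adjusted p = 0.04, 0.0161 and 0.00237). These are 1 rise and 2 falls, where 17.2% of all genes rose and 15.4% fell. Rxra, the partner receptor, had a difference of 0.05 ± 0.0262 (adjusted p = 0.134). Of 6 tested genes that make or clear oxysterols and other sterol ligands, none rose and 2 fell, among them Cyp39a1 by 0.61 ± 0.0789 (adjusted p = 1.18e-09). Cyp7a1, the rate-limiting enzyme of bile acid synthesis, had a difference of 0.47 ± 0.199 that was not called (adjusted p = 0.0598).

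Among 15 tested partners in sterol uptake, esterification and lipoproteins, 4 rose and 3 fell, where 17.2% of all genes rose and 15.4% fell. Gramd1b (a sterol transfer protein) rose by 0.42 ± 0.0406, and Abcb4 (the phosphatidylcholine exporter of bile) by 0.41 ± 0.0521 (adjusted p = 5.07e-14 and 5.67e-10). Scarb1 (the HDL receptor) and Soat1 also rose, and Apoa1 and Gramd1a were among those that fell. Of 10 tested ABCA and ABCG genes outside the 9, Abcg2 rose by 0.39 ± 0.0401 (adjusted p = 2.88e-13) and Abcg3 rose, while Abca8a fell by 0.46 ± 0.0748 (adjusted p = 8.28e-07) and Abca6 fell. These 2 rises and 2 falls are near the shares of all genes. Of 4 tested lysophospholipid acyltransferase genes beside Lpcat3, Lpgat1 rose (0.15 ± 0.0468; adjusted p = 0.0079).

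Markers of cell types that a liver can hold were read beside these results. Of 15 macrophage markers 9 rose and none fell (median 0.23), in females 9 and in males 3. Of all genes tested 17.2% rose and 15.4% fell, and 9.59% rose in females and 11% in males. Their summed level was 274 to 2280 (median 644) on the control and 128 to 2523 (median 770) on the HF/HS diet, and Trem2, Gpnmb, Mmp12 and Marco were at 0 in 19, 11, 4 and 1 of the 118 libraries. Macrophages also express Abcg1, which differed by 0.41 in females and 0.25 in males, and Apoe, which differed by 0.28 in both, and the part of macrophages in these rises was not tested.

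Of 10 tested hepatocyte markers, 5 fell and 2 rose (median -0.21), with summed levels of 18541 to 99909 on the control and 20369 to 74368 on the HF/HS diet. Hnf4a, Apob and Cps1 were above 0 in every library, but Alb, 1 of the 2 that rose and part of the summed level, was listed at 0 in 102 of 118. Hepatocytes are the liver cells that express Abcg5 and Abcg8. All marker counts stand beside 17.2% of all genes that rose and 15.4% that fell, and most lists below are short. Of endothelial markers 2 of 6 rose (summed level 123 to 241 on the control and 111 to 282 on the HF/HS diet), of stellate cell markers 2 of 5 (115 to 284 and 118 to 312), of bile duct markers 1 of 2 (12.0 to 218 and 11.2 to 185), and of neutrophil, red cell and lymphocyte markers none of 3, 3 and 1. The gut list had 1 tested gene, Fabp2, which rose (0.76), while Cdx2 was at 0 in 115 libraries. The fat cell list had 1, Cfd, which rose (0.51) and was at 0 in 52 libraries, with Plin1 at 0 in 93. The part of these cells in the results was not tested.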

How the data were processed

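Per the labels' protocols, flash-frozen livers gave RNA for stranded total RNA (rRNA-depleted) and stranded mRNA libraries from 500 ng, sequenced on 1 instrument type, and which library had which kit is not stated. The authors deposited 1 table of FPKM-like values for 24883 rows and 120 libraries, rescaled so that the 75th percentile of each column is 9.992 to 10.0. The submitters' processing notes name TopHat2 2.1.1, Bowtie2 2.2.5.0, Cufflinks 2.2.1 and mm10, without role or order. Depth is unknown, so no counting intervals are given. Of the rows, 821 share a symbol and 1 lacks a value.

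Values were analysed as log2(value + 1) with limma 3.58.1 (R 4.3.3), 1 mean for each of 40 groups, a trended robust prior, and genes with a mean of at least 1 (12205), and p-values were adjusted by Benjamini-Hochberg over all of them. Ratios and correlations used permutations within groups in SciPy 1.17.1 and NumPy 2.4.6. The limma script was tested on simulated data. Named genes are the 9, genes of the lists, called or not, and genes among the 3 most like each of the 9. The plan was to give values for at most 4 genes per list, those with the lowest p. It was not followed for every list, and some called genes are given without values. The 9 genes and all lists were chosen with earlier results of these data known. Alternatives changed the pseudocount, filter, scaling, prior, weights, replicate block, unit, strains and replicates. Leaving out the 2 libraries that stood apart was added after seeing the data. Some results of the pathway lists are not reported here.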

Additional observations from a re-analysis of the deposited data

Results flagged for a closer look

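The diet effect on Abcg5 differed between the sexes, being 0.52 larger in males on the log2 scale (limma, adjusted p = 0.0354), where 0.877% of all genes were called. That call was lost with each strain as 1 replicate (limma, adjusted p = 0.813) and was kept in 20 of 36 alternatives. The Abcg5 diet effect also differed between strains (limma F test, adjusted p = 0.000207), and so did that of Abcg8 (adjusted p = 0.0124), where 5.54% of all genes did. Without CC060 neither strain difference was called.

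In 3 cases the 2 sexes of a strain moved in opposite directions with no overlap between diets, and the difference was not tested. The male minus female log2 difference was -0.33 for Nr1h2 in CC040, which had 2 female libraries a diet, and -0.86 for Lpcat3 in CC043. It was 0.79 for the Abcg5 to Abcg8 ratio in CC032. Over all genes and strains 1.4% of pairs showed such an opposition, and the 2 genes are 2 of 90 pairs, a share near it. That share was not computed for ratios.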

How the results depend on the processing

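Over all strains, 5 to 7 of the 9 genes were called under 36 alternatives, against 6. The differences near 0 changed sign. Nr1h3 over all was -0.00026 with all columns as labelled, and -0.017, -0.0098, -0.0016, -0.00088, -0.0092 and -0.0052 without CC003, CC011, CC013, CC019, CC041 and CC042. Leaving out 1 replicate of each strain gave -0.018 to 0.022. Nr1h2 over all was 0.0039 under quantile normalization, 0.0059 with library weights, 0.0037 without CC003 and CC060, 0.0013 and 0.0011 without CC011 and CC041, 0.0038 without the 2 libraries that stood apart, and -0.017 to 0.0076 without 1 replicate. Without 1 replicate, Nr1h3 was -0.00025 to 0.050 in females and -0.061 to 0.018 in males. In males it was 0.0083 under quantile normalization, 0.011 with weights, 0.0037 without CC003 and CC060, 0.031 without CC060 and 0.0057 without those 2 libraries. The Nr1h3 to Nr1h2 ratio was -0.0054 to 0.031 without 1 replicate.

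Counts of called genes moved as follows. In females it was 2 with the strain as the unit, 3 without CC032 and 3 to 6 without 1 replicate, and in males 3 with the strain as the unit. For the difference of diet effects between sexes it was 0 with the strain as the unit, without CC003 and CC060, and without any 1 of CC003, CC011, CC013, CC019, CC032 or CC041, 3 with weights, and 0 to 1 without 1 replicate. With the strain as the unit this comparison had 0 calls among all genes by limma too. On the control diet, sex calls were 1 with the strain as the unit, 3 without CC019, CC042 or CC043, and 2 to 7 without 1 replicate. On the HF/HS diet they were 5 without CC042 or CC060. Strain differences in diet effect were 7 with weights, 0 without CC060 and 0 without CC003 and CC060, and 1 to 3 without 1 replicate. Weights gave 43 calls by strain and 60 by strain and sex, against 15 and 19, and without 1 replicate these were 10 to 16 and 13 to 22. Correlated pairs were 3 under quantile normalization and 9 without CC003 and CC060, against 5.

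Over all genes, diet calls were 3975, against 2072 with the strain as the unit and 6012 with weights. Replicate numbers were not shown to pair libraries: r between same-numbered libraries was -0.222 to 0.365 over 58 pairs (9 over 0.1, among them all 3 of CC041 females at 0.2501 to 0.3649), and a library correlated best with its own number in 20 of 58. A replicate block gave 3998 (additive) and 4067 (random) calls, with 6 of the 9 genes in each. Depth is unknown, so the noise of low values such as Abcg1 could not be set against counting error.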

Other observations

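The 2 identical columns of CC040 females, control 3 and HF/HS 1, entered no comparison. Both list Abcg5 at 86.4, Abcg8 at 55.3, Abca1 at 74.6, Abcg1 at 5.23, Apoe at 23352, Mylip at 10.5, Lpcat3 at 59.5, Nr1h3 at 82.3 and Nr1h2 at 19.4.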
